A study of Mus musculus with 48 samples.

Results

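The 10 Hippo pathway genes described here were followed through 48 single cells of the mouse inner cell mass (ICM): the coactivator genes Yap1 and Wwtr1 (which encodes TAZ), the transcription factor genes Tead1, Tead2 and Tead4, the kinase genes Lats1 and Lats2, the angiomotin genes Amot and Amotl2, and Vgll4. They were chosen by name, and 10 of 10 were found among the 49671 genes of the count table, 21943 of them counted somewhere. The cells came from 3 natural-mating embryos at E3.75, from crosses of PDGFRa::H2B-GFP/+ mice with F1 (C57BL/6JxCBA/J) mice. Per the methods, each embryo was positive for the reporter, which marks cells with an active Pdgfra locus, and was picked for GFP-positive cells scattered through the ICM. ICMs were isolated by immunosurgery and dissociated, and each well held 1 cell, sequenced by Smart-seq2, which reads along whole transcripts and has no molecular identifiers. All cells were labelled WT, with no treatment, and all shared the reporter allele. No label tied a cell to its embryo, so the 48 cells were treated as 1 sample, and cells were never used as replicates in a test.

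The Hippo pathway is a kinase relay in which MST and LATS kinases phosphorylate YAP and TAZ and keep them in the cytoplasm. Where the relay is off, YAP and TAZ enter the nucleus and switch on genes with the TEAD proteins, which bind DNA but need a coactivator. In the blastocyst the pathway is known for the outside and inside cells: polarized outer cells have nuclear YAP and become trophectoderm through TEAD4 and CDX2, while in inner cells the angiomotins at the adherens junctions help LATS to hold YAP back. RNA levels say nothing of where YAP is or whether it is phosphorylated.

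The lineages of the cells followed the published dendrogram, read by eye, with 25 cells on the epiblast precursor (pEPI) branch and 23 on the primitive endoderm precursor (pPrE) branch. The dendrogram itself rests on the RNA of these cells, so all differences between them are descriptions without a test. Total counts per cell ranged from 1718970 to 7342785, with a median of 3751329 in pEPI and 4251373 in pPrE cells. Levels are in FPKM (fragments per kilobase of exon, scaled to library size), computed from the raw counts, and the SD is the spread between cells. The ICM label held: Pou5f1, the pluripotency factor OCT4, lay between 224 and 473 FPKM in every cell, while Cdx2, the trophectoderm factor, had a mean of 0.216 FPKM. Of 11 trophectoderm markers, all had counts but 5 reached a mean of 1 FPKM, with Krt8 highest at 34.3 FPKM. Their summed level ran from 3.43 to 173 FPKM (median 32.3) in pEPI cells and from 16.4 to 122 FPKM (median 42.2) in pPrE cells, and its part in the results was not tested. Uty, Ddx3y, Kdm5d and Eif2s3y, 4 genes of the Y chromosome, split the cells cleanly, with 242 to 1298 summed counts in 29 cells and 0 or 1 in 19 cells. Xist, the RNA of the inactive X chromosome, had counts in 17 of these 19 cells and in 3 of the 29. These classes lay in runs of wells, A1 to C2 and E1 to F3 with Y-linked counts, C3 to D8 and F4 to F8 without. Sex, embryo and well position cannot be told apart here.

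TEAD proteins bind the letters GGAATG, so the 250 bases before the start sites of the members were searched for them on both strands. The motif was present before 4 of the 8 members with a window in the promoter set used, Yap1, Wwtr1, Amotl2 and Vgll4. It lay in 5 of the 10 windows of the 8 genes, of which the 2 windows of Wwtr1 overlap and share 1 copy. Of all 32817 such windows, 12.6% held it. Tead1 and Tead4 had no window in the set and were not searched. The windows of 3 genes are shown, from RefSeq on GRCm38.p6 and read 5′ to 3′ on the strand of the gene, with the motif in capitals. Among the members of at least 1 FPKM, Amotl2 and Wwtr1 are those whose levels differed most between the branches and between the Y-linked classes, and Ccn1 is the TEAD target of the second highest level.
Amotl2, chr9:102717554-102717803, plus strand: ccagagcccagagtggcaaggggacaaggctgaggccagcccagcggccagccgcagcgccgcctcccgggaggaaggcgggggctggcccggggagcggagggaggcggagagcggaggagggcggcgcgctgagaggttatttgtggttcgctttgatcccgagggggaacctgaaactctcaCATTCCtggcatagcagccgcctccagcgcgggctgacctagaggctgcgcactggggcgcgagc
Wwtr1, chr3:57575911-57576160, minus strand: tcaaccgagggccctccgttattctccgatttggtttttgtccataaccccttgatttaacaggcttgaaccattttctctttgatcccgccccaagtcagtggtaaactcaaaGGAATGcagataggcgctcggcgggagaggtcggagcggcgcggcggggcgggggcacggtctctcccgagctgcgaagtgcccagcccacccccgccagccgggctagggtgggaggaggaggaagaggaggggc
Ccn1, chr3:145649986-145650235, minus strand: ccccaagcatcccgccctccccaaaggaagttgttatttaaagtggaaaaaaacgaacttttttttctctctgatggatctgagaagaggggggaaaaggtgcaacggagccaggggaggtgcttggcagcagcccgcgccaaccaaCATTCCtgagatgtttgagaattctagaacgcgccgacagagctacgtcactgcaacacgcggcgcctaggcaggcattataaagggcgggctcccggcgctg
In Amotl2 the motif lay 65 to 60 bases before the start and in Ccn1 103 to 98 bases before it, both as the opposite-strand letters CATTCC. In Wwtr1 it lay 136 to 131 bases before the start in the given orientation. The Amotl2 window lies inside the gene as GENCODE M21 draws it (chr9:102716672-102733418), which starts farther upstream. The same is true of the windows of Amot, Vgll4 and Lats2. For these genes the bases before the farthest upstream start were not searched. A match of 6 letters is a description of the sequence and not a binding site.

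**Figure D1:**
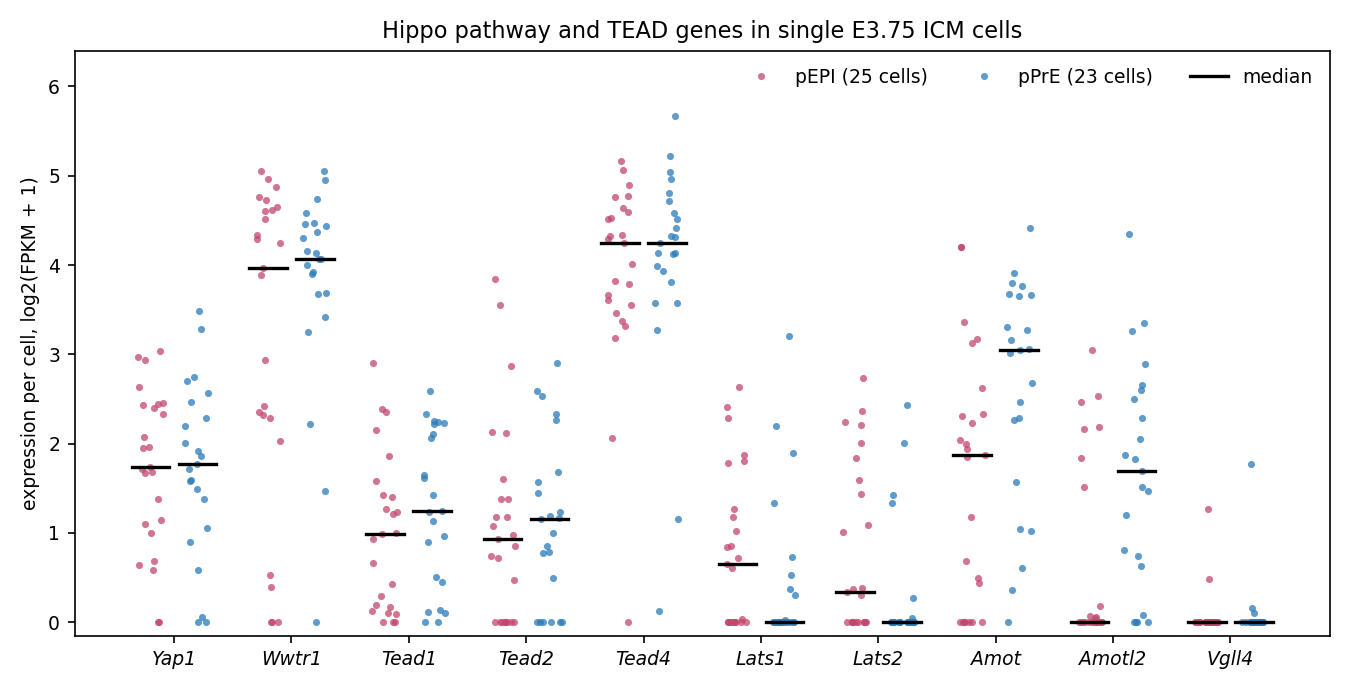
Expression of the 10 genes in each cell as log2(FPKM + 1), with 25 pEPI and 23 pPrE cells side by side and a bar at the median of each. Tead4 and Wwtr1 stood highest, every gene overlapped between the branches, and the medians of Amot and Amotl2 were higher in pPrE cells.

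The levels spanned more than 2 orders of size. Tead4 had the highest mean over the 48 cells, 18.2 ± 9.91 FPKM (SD, n = 48 cells), followed by Wwtr1 at 14.9 ± 9.80. Then came Amot at 5.38 ± 5.36, Yap1 at 2.96 ± 2.37, Amotl2 at 2.26 ± 3.55, Tead2 at 1.86 ± 2.73 and Tead1 at 1.62 ± 1.63 FPKM. Lats1 (0.953 ± 1.69), Lats2 (0.846 ± 1.47) and Vgll4 (0.0922 ± 0.403) stayed under 1 FPKM. Between all 9 neighbours in this order the difference of the means was smaller than the SD of the difference over cells, so no single step of the order stood beyond the spread. Thus 7 members reached the minimum of a mean of 1 FPKM over all cells that was set for ratios between the branches. Of the other 3, Lats1 and Lats2 were counted in only 24 and 20 of 48 cells, and Vgll4 had only 95 counts.

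Over all 48 cells the coactivator pair was led by Wwtr1. Wwtr1 (ENSMUSG00000027803, chr3:57455649-57575910, minus strand) ranged from 0 over a median of 14.6 to 32.2 FPKM in pEPI cells and from 0 over 15.8 to 32.1 FPKM in pPrE cells. Yap1 (ENSMUSG00000053110, chr9:7931999-8004596, minus strand) ranged from 0 over 2.33 to 7.21 FPKM in pEPI cells and from 0 over 2.41 to 10.2 FPKM in pPrE cells. A processed pseudogene, Gm16016, lies opposite Wwtr1 and held 207 counts beside 13809. Both genes overlapped between the branches, with log2 ratios of pPrE over pEPI means of 0.20 for Wwtr1 and 0.08 for Yap1. Within single cells, log2 of (Wwtr1 + 1) over (Yap1 + 1) had a median of 2.19 ± 1.77 (SD, n = 48 cells), and Wwtr1 was the higher of the pair in 37 cells. It was the higher in 27 of 29 cells with Y-linked counts and in only 10 of 19 cells without them. No cell lacked counts of both coactivators, 0 of 48 cells, which allows a share of up to 7.40% (exact Clopper-Pearson interval, 95%). Over the 48 cells the levels of the pair had a Spearman correlation of -0.05.

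Among the TEAD genes, which encode the DNA-binding partners of YAP and TAZ, Tead4 prevailed. Tead4 (ENSMUSG00000030353, chr6:128224288-128300823, minus strand) ranged from 0 over 18.04 to 34.9 FPKM in pEPI cells and from 0.0915 over 17.96 to 49.7 FPKM in pPrE cells. It was counted in 47 of 48 cells and was the highest TEAD gene in 45. Its share of the summed FPKM of Tead1, Tead2, Tead3 and Tead4 had a median of 85.5% over cells, 89.4% in pEPI and 84.1% in pPrE cells. The log2 ratio of the branch means was 0.17, so the branches did not differ beyond the spread between cells (difference 2.21 FPKM, SDs 8.87 and 11.02).

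Tead1 and Tead2 were low in most cells and Tead3 was almost unseen. Tead1 (ENSMUSG00000055320, chr7:112679318-112906807, plus strand) ranged from 0 over 0.985 to 6.48 FPKM in pEPI cells and from 0 over 1.38 to 5.003 FPKM in pPrE cells, a log2 ratio of 0.42. Tead2 (ENSMUSG00000030796, chr7:45215753-45233644, plus strand) ranged from 0 over 0.907 to 13.4 FPKM in pEPI cells and from 0 over 1.24 to 6.47 FPKM in pPrE cells, a log2 ratio of -0.26. Its 2 highest cells were the pEPI cells D4 (13.4 FPKM) and C8 (10.7 FPKM), and without D4 the ratio changed sign to 0.13. D4 was the cell without any Tead4 count, and Tead2 made up 89.1% of its TEAD sum. The pPrE cells B5 and F7 were the others in which Tead4 did not lead, with TEAD sums of only 1.82 and 2.83 FPKM. Tead3 had a mean of 0.0589 FPKM and counts in 6 cells.

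**Figure D2:**
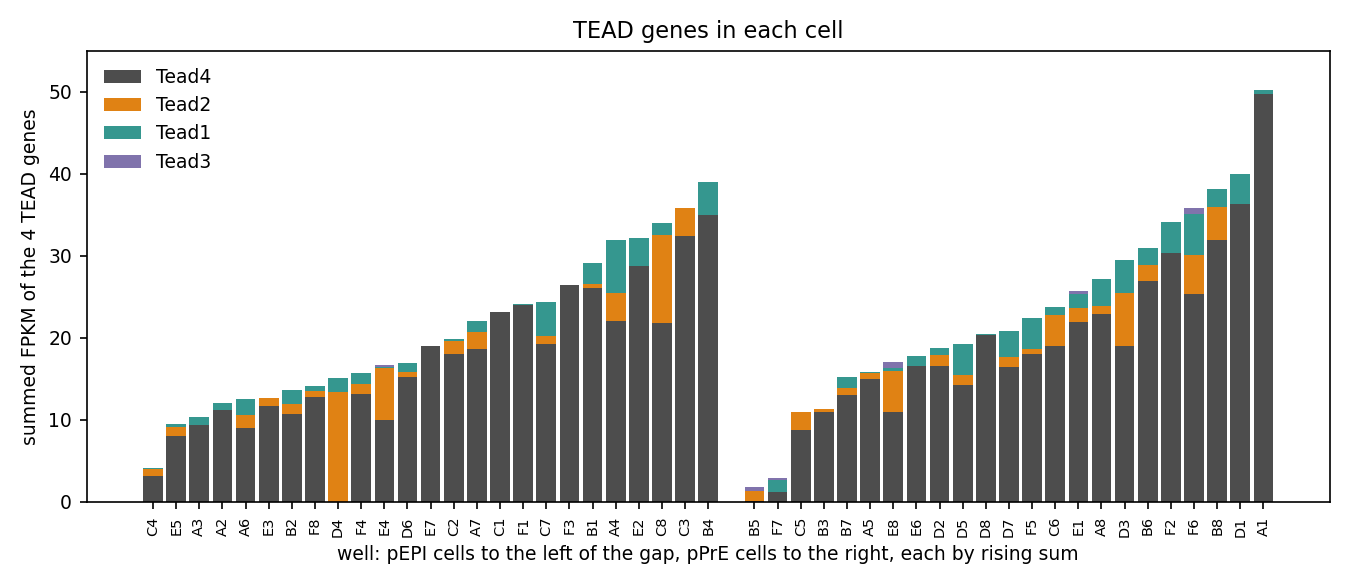
Summed FPKM of Tead1, Tead2, Tead3 and Tead4 in each cell, stacked by gene, with pEPI cells on the left and pPrE cells on the right, each ordered by the sum. Tead4 made up the largest piece in 45 of 48 cells, and the exceptions were D4, B5 and F7.

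The LATS kinases, which phosphorylate YAP and TAZ, were sparse. Lats1 (ENSMUSG00000040021, chr10:7681214-7716460, plus strand) was counted in 15 of 25 pEPI cells (60%, exact interval 38.7 to 78.9%) and in 9 of 23 pPrE cells (39.1%, 19.7 to 61.5%). Lats2 (ENSMUSG00000021959, chr14:57689662-57758388, minus strand) was counted in 14 of 25 pEPI cells (56%, 34.9 to 75.6%) and in 6 of 23 pPrE cells (26.1%, 10.2 to 48.4%). Over all cells the share of each was lower in pPrE cells. For Lats1 it was 11 of 17 pEPI and 4 of 12 pPrE cells with Y-linked counts, and 4 of 8 and 5 of 11 without. The intervals treat cells as independent draws, although cells share embryos, and are no test between the branches. Lats1 ranged from 0 over 0.571 to 5.20 FPKM in pEPI cells and from 0 over 0 to 8.20 FPKM in pPrE cells, where the cell D8 alone held the highest value. Lats2 ranged from 0 over 0.267 to 5.68 FPKM in pEPI cells and from 0 over 0 to 4.41 FPKM in pPrE cells. The log2 ratios of pPrE over pEPI means were -0.55 for Lats1 and -1.33 for Lats2, from genes below the minimum. The Lats1 value was not stable: it was -1.38 without D8 and 0.26 without the cells of well letter E. Within the cells with Y-linked counts it was -1.62 and within those without 0.49. The Lats2 value was -1.08 without its highest cell, A7. Within cells, log2 of (Lats2 + 1) over (Lats1 + 1) had a median of 0 ± 1.22 (SD, n = 48 cells), so neither kinase gene led the other over all cells. The runs of wells differed. Lats2 was the higher in 9 cells and the lower in 2 from A1 to C2, and in 3 and 6 from E1 to F3. From C3 to D8 these were 4 and 5 cells and from F4 to F8 1 and 3. Counts of both were present in 9 of 25 pEPI and 2 of 23 pPrE cells, and counts of neither in 5 of 25 and 10 of 23. Lats2 overlaps a pseudogene on the opposite strand, Gm20430, which held 358 counts beside 1180 of Lats2. The library does not mark strand, so the strand of reads within the overlap is not known. Gm49361, a protein-coding gene on the same strand, also overlaps Lats2, and no count was available for it.

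Among the 7 members at the minimum, the angiomotin genes differed most between the branches. Amotl2 (ENSMUSG00000032531, chr9:102716672-102733418, plus strand), a scaffold protein of cell junctions that binds YAP, ranged from 0 over 0 to 7.30 FPKM in pEPI cells and from 0 over 2.22 to 19.4 FPKM in pPrE cells. The mean was 1.14 ± 2.04 FPKM in pEPI cells (SD, n = 25 cells) and 3.48 ± 4.40 FPKM in pPrE cells (SD, n = 23 cells), 3.06-fold higher, a log2 ratio of 1.62. The branches overlapped, and the difference of 2.35 FPKM was smaller than the SD of the pPrE cells. Amotl2 was counted in 11 of 25 pEPI cells (44%, exact interval 24.4 to 65.1%) and in 19 of 23 pPrE cells (82.6%, 61.2 to 95.05%), and at 10 or more counts in 7 and 18. With every cell thinned to the same total it was counted in 9 and 19 cells. Without D1, the pPrE cell with the highest level, the log2 ratio was 1.28.

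Amot (ENSMUSG00000041688, chrX:145446425-145505181, minus strand), the founding member of the family, ranged from 0 over 2.66 to 17.4 FPKM in pEPI cells and from 0 over 7.25 to 20.3 FPKM in pPrE cells. The mean was 3.745 ± 4.93 FPKM in pEPI and 7.16 ± 5.34 FPKM in pPrE cells, 1.91-fold higher, a log2 ratio of 0.93. This difference of means was absent in the run A1 to C2, at 4.50 FPKM in pEPI and 4.39 FPKM in pPrE cells (medians 1.94 and 4.17). The means were 0.775 and 7.27 FPKM from C3 to D8 and 4.71 and 11.2 FPKM from E1 to F3. From F4 to F8 they were 5.50 and 8.88 FPKM. Amot had counts in 18 of 25 cells of the pEPI branch and in 22 of 23 of the other. The pEPI cells A3 and C1 stood at 17.4 FPKM, far above the other pEPI cells. Their trophectoderm markers summed to 107 and 173 FPKM, the latter the highest of all cells, and both changed sides when cells were grouped by markers. The pEPI cells F1 and B1 also had high sums, 139 and 114 FPKM, but Amot at 3.69 and 2.61 FPKM. Amot had a Spearman correlation with the summed trophectoderm markers of 0.20 in pEPI, -0.11 in pPrE and 0.11 in all 48 cells. The part of these markers in the Amot values was not tested. When each pPrE cell was set against each pEPI cell, it was the higher of the pair in 71.6% for Amot and 73.7% for Amotl2, with ties shared between the sides. Counts of neither angiomotin gene were seen in 3 pEPI cells (A4, A6 and F3) and in 0 of 23 pPrE cells, which allows a share of up to 14.8% (exact interval). Amotl1, the other paralog, had no count in any cell, below 3 counts of the total or 0.0158 CPM over the 48 cells.

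Vgll4 (ENSMUSG00000030315, chr6:114860628-114969994, minus strand), a cofactor that competes with YAP for TEAD, was barely seen. It had 95 counts in all, in 2 pEPI and 3 pPrE cells, with 50.5% of them in the cell A1 (2.42 FPKM). No ratio is drawn from it.

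Of the 7 members at or above the minimum, Amotl2 alone was past 2-fold between the branches. Of all 10880 genes at this minimum, 15.2% were past 2-fold, 6.20% higher in pPrE and 9.03% higher in pEPI cells, so 1 of 7 lay close to the background. The median log2 ratio was 0.20 over the 7 members and 0.00 over all genes. Amotl2 lost this place when the mean was taken over log2(FPKM + 1) (1.00, just under the threshold), when the cells were grouped by their lineage markers (0.89, with 6 cells changing sides) and within the cells without Y-linked counts (0.80). In the same 3 settings Amot was past 2-fold, at 1.01, 1.94 and 1.98.

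**Figure D3:**
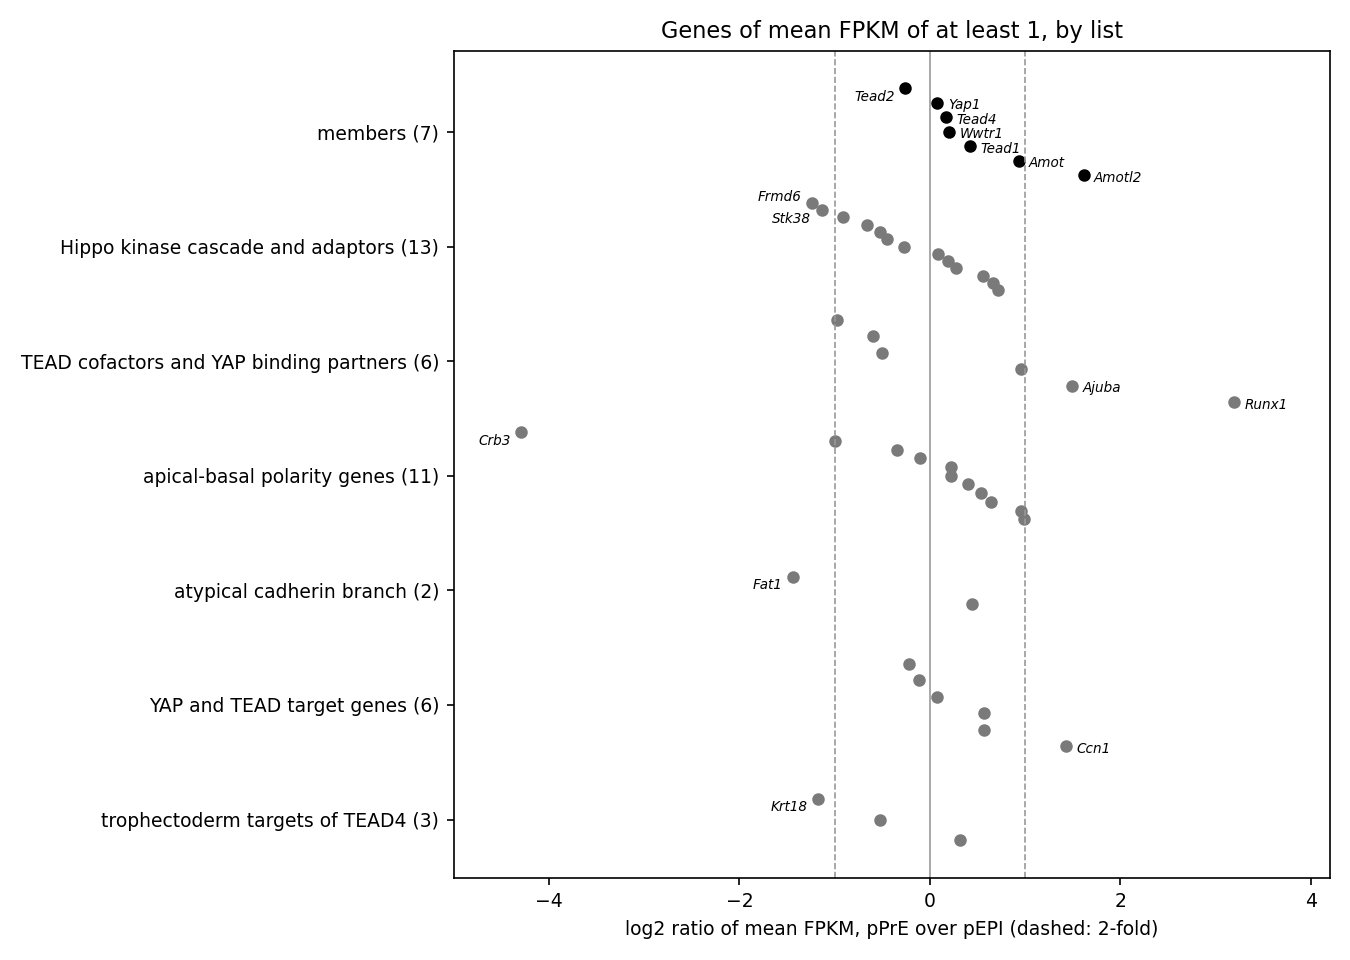
Log2 ratio of mean FPKM in pPrE over pEPI cells for the genes of mean FPKM of at least 1, by list, with the number of genes in brackets and dashed lines at 2-fold. Amotl2 was the member past 2-fold, and Runx1 and Crb3 had the largest ratios of the pathway genes in each direction.

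Wwtr1 differed more between the Y-linked classes than between the branches. In the 29 cells with Y-linked counts it ranged from 0.445 over 20.7 to 32.2 FPKM, and in the 19 cells without from 0 over 4.01 to 25.8 FPKM, a log2 ratio of means, without over with, of -1.35. Within the pEPI branch, the 8 cells without Y-linked counts ranged from 0 over 1.70 to 4.13 FPKM and the 17 cells with them from 0.445 over 21.9 to 32.2 FPKM. All 8 lay below all but 1 of the 17, the cell A6 at 0.445 FPKM. The low pEPI cells came from both runs of wells, 6 cells between C3 and D8 and 2 cells between F4 and F8. In pPrE cells the classes overlapped broadly, at 0 over 13.98 to 25.8 FPKM in 11 cells without and at 8.48 over 20.2 to 32.1 FPKM in 12 cells with Y-linked counts. The log2 ratio of pPrE over pEPI was 2.62 among the cells without and 0.02 among the cells with Y-linked counts. The balance against Yap1 followed, with a median log2 ratio per cell of -0.78 in the 8 pEPI cells without Y-linked counts and 2.40 in the 17 with. Yap1 itself had medians of 2.54 and 2.33 FPKM in these cells. Median total counts were 3717310 and 4067240, so depth was close. The cells also differed in lineage markers. The score of pPrE minus pEPI markers (means of standardized levels) ran from -2.44 to -1.13 in the 8 cells and from -1.72 to 0.52 in the 17, which held all 6 pEPI cells that changed sides when grouped by markers. Wwtr1 had a Spearman correlation with this score of 0.75 over the 25 pEPI cells and of 0.08 over the 23 pPrE cells. The summed trophectoderm markers had medians of 23.9 FPKM in the 8 and 47.5 FPKM in the 17 cells. The part of either in the Wwtr1 difference was not tested.

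Tead2 and Amotl2 were also past 2-fold between the Y-linked classes, with log2 ratios, without over with, of 1.20 and 1.34. Of the 6 autosomal members at the minimum, 3 were past 2-fold, where 14.3% of 10431 autosomal genes were. The calls of Tead2 and Amotl2 each rested on 1 cell: without D4 the Tead2 ratio was 0.86 and without D1 that of Amotl2 was 0.93. Without its highest cell, E3, the Wwtr1 ratio was -1.32. Amotl2 was counted in 17 of 19 cells without and in 13 of 29 cells with Y-linked counts. Among the latter the runs of wells differed. In the run E1 to F3 it was counted in 2 of 11 cells, E5 at 0.0470 and F2 at 1.86 FPKM, and in the run A1 to C2 in 11 of 18 cells. The branch difference of Amotl2 was present in the run A1 to C2, with counts in 3 of 10 pEPI and 8 of 8 pPrE cells and means of 0.840 and 3.81 FPKM. In the run C3 to D8 it was counted in 14 of 14 cells, with means of 3.02 FPKM in 6 pEPI and 5.14 FPKM in 8 pPrE cells. The medians in this run were close, at 3.05 and 3.28 FPKM, and the pPrE mean includes D1 at 19.4 FPKM. Amot, the X-linked member, had means of 5.44 FPKM in cells with and 5.29 FPKM in cells without Y-linked counts, a log2 ratio of -0.04, where the median over 425 X-linked genes was 0.14 and 22.8% were past 2-fold. Within pEPI cells its ratio was -1.23 and within pPrE cells 0.21.

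**Figure D4:**
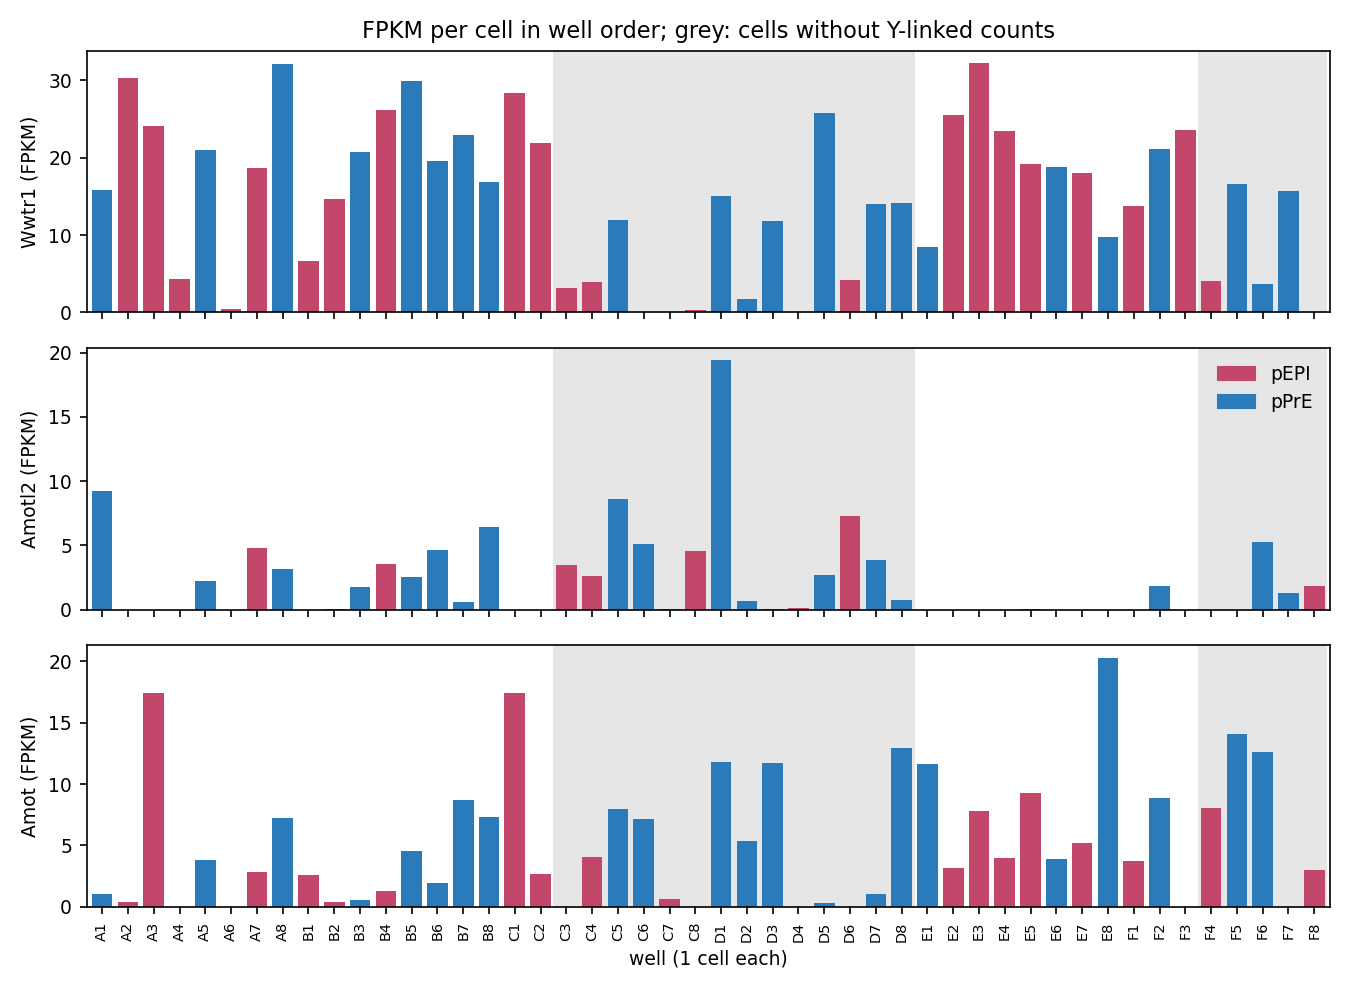
FPKM of Wwtr1, Amotl2 and Amot in each of the 48 cells in well order, coloured by branch, with the cells without Y-linked counts on grey. Wwtr1 did not exceed 4.13 FPKM in pEPI cells on grey. Amotl2 was near 0 from E1 to F3 except in F2 (1.86 FPKM), and Amot passed 10 FPKM in cells on both backgrounds.

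Most upstream kinases and adaptors had higher levels than the LATS genes. Of 16 genes on this list, 13 reached the minimum, 0 were past 2-fold in pPrE and 2 in pEPI cells, Frmd6 (-1.24) and Stk38 (-1.14). Frmd6, the relative of the Drosophila Expanded protein, had means of 5.24 ± 5.26 FPKM in pEPI and 2.22 ± 4.43 FPKM in pPrE cells and was counted in 21 and 10 cells. Its branch difference was seen in the cells with Y-linked counts (5.70 FPKM in pEPI, 0.0423 FPKM in pPrE cells) and not in those without (4.27 and 4.604 FPKM, log2 ratio 0.11). Stk38, the LATS-related kinase NDR1, had means of 14.7 ± 9.45 and 6.67 ± 3.30 FPKM, with log2 ratios of -0.55 within the cells with and -1.92 within those without Y-linked counts. Mob1a, the LATS coactivator, had the highest mean on the list, 19.9 FPKM. The MST kinase genes Stk3 and Stk4 had log2 ratios of -0.66 and -0.91, and Nf2, the adaptor merlin, of -0.53. Sav1, the scaffold of the MST kinases, had a mean of 0.464 FPKM.

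Of 13 TEAD cofactors and YAP binding partners, 6 reached the minimum and 2 were past 2-fold, both higher in pPrE cells. Runx1, a transcription factor that can bind YAP, had means of 0.335 ± 0.734 FPKM in pEPI and 3.07 ± 2.07 FPKM in pPrE cells, a log2 ratio of 3.20, and was counted in 7 of 25 and 21 of 23 cells. Ajuba, a LIM protein that can inhibit LATS, had means of 2.87 ± 3.21 and 8.10 ± 9.22 FPKM, a log2 ratio of 1.498. It was counted in 15 of 25 and 16 of 23 cells. Within the cells with Y-linked counts 13 of 17 pEPI and 8 of 12 pPrE cells had counts (log2 ratio 0.52, under 2-fold), and within those without 2 of 8 and 8 of 11 had (3.27). Ywhaq, the 14-3-3 protein that can hold phosphorylated YAP, had the highest mean of the list, 122 FPKM, with 146 ± 41.1 in pEPI and 96.4 ± 22.3 in pPrE cells. Vgll2, Vgll3 and Amotl1 had no counts.

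Among the apical-basal polarity genes, all 11 reached the minimum and 1 was past 2-fold, Crb3 at -4.29, a Crumbs protein of the apical membrane. Crb3 had means of 4.05 ± 7.16 FPKM in pEPI and 0.207 ± 0.971 FPKM in pPrE cells and was counted in 11 and 2 cells. Prkci, the atypical protein kinase C of the apical complex, led the list at 28.7 FPKM with a ratio of 0.40. In the atypical cadherin branch, Fat1 was past 2-fold at -1.44 (2.34 ± 2.01 FPKM in pEPI and 0.863 ± 0.992 in pPrE cells), and Fat4 and Dchs1 had no counts.

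Of 20 YAP and TEAD target genes, 16 had counts, 6 reached the minimum and 1 was past 2-fold. Ccn1, a secreted matrix protein, ranged from 0 over 18.8 to 206 FPKM in pEPI cells and from 0 over 44.7 to 756 FPKM in pPrE cells, a log2 ratio of 1.43. The pPrE cell C5 alone held 32.5% of its counts. Without C5 the log2 ratio was 0.92 and within the cells without Y-linked counts 0.83, both under 2-fold, against 1.84 within the cells with them. Ccn2, its close relative, ranged from 0.218 over 16.4 to 96.2 FPKM in pEPI and from 0.637 over 18.8 to 118 FPKM in pPrE cells, a log2 ratio of 0.57. Birc5, the mitotic protein survivin, was highest of the list at 99.5 FPKM with a ratio of 0.08. Ankrd1 (mean 0.0303 FPKM) was almost unseen and Axl had no counts, so the list was carried by few genes. Of the trophectoderm targets of TEAD4, Krt18, a keratin, was past 2-fold at -1.17 (counted in 9 pEPI and 4 pPrE cells). Without the pEPI cell B1 this was -0.72, and the direction turned from -3.07 within the cells with Y-linked counts to 0.96 within those without. Eomes had a mean of 3.21 FPKM. Over the 6 lists together, 3 of 41 genes at the minimum were past 2-fold in pPrE cells and 5 in pEPI cells, beside 6.20% and 9.03% of all genes.

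Cell by cell, the members did not move as 1 group. The median Spearman correlation over the 45 pairs of members was -0.02 in all 48 cells, 0.04 in pEPI and -0.01 in pPrE cells. The lowest was that of Wwtr1 with Tead2, -0.43 (-0.51 in pEPI, -0.46 in pPrE cells), and the highest that of Tead1 with Tead4, 0.32 (0.08 and 0.48). Amot had a correlation of -0.56 with Nanog, the epiblast factor, and of 0.47 with Sox17, an endoderm factor, and these were -0.56 and 0.42 within pEPI cells and -0.30 and 0.24 within pPrE cells. Wwtr1 had a correlation of -0.64 with Nanog within pEPI cells and of -0.26 within pPrE cells. Amotl2 had correlations of 0.40 with Ccn1 and 0.36 with Ccn2, and with Ccn1 of 0.72 within pEPI and -0.08 within pPrE cells. Wwtr1 had correlations of -0.37 with Ccn1 and -0.25 with Ccn2, and Yap1 of 0.00 and -0.11. Those of Wwtr1 were -0.59 and -0.41 within pEPI and -0.21 and -0.06 within pPrE cells. In pEPI cells without and with Y-linked counts, Ccn1 had medians of 62.3 and 15.6 FPKM and Amotl2 of 2.23 and 0 FPKM. The part of this split in the correlations was not tested. All the correlations are descriptions over cells that share embryos and runs of wells.

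The genes most like each member were taken as the highest Spearman correlations over the 48 cells among 10054 genes counted in at least 24 cells. For Wwtr1 they were Psrc1 (0.63), Stfa1 (0.62) and the Y-linked Eif2s3y (0.62). For Tead2 they were Phc1 (0.68), Arhgef18 (0.55) and Zbtb8a (0.52), and for Tead4 Acadsb (0.59), Gm12460 (0.49) and Tgfbrap1 (0.49). For Amot they were Uap1 (0.60), Serpine2 (0.59) and Suclg1 (0.57), and for Amotl2 Pfkl (0.58), Gm17167 (0.58) and Timp1 (0.56). For Yap1 they were Zgpat (0.57), P3h1 (0.56) and Srrd (0.51), and for Tead1 the highest was 1810055G02Rik (0.55). For Lats1, Lats2 and Vgll4 the highest were Emc2 (0.54), Gm7850 (0.59) and Esrp1 (0.45), and Vgll4 had counts in only 5 of the 48 cells. No other member of the pathway stood among these genes. The correlations were picked as the highest of 10054 for each member. How high such a pick runs between unrelated genes was not computed.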

How the data were processed

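Single ICM cells were sequenced by Smart-seq2, and per the methods the authors ran htseq-count against Ensembl 87 annotation on mm10 alignments. The deposited values are raw counts, whole numbers without normalization, for 49671 genes and 48 cells. The submitters' processing notes also name STAR, without a version. Counts were divided by library sizes from the median of ratios and by the exon union of each gene in GENCODE M21 (GRCm38), which gave FPKM, computed here. Ensembl 87 lengths were not used here, and 0.0146% of the counts lay on genes without a length.

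The 48 cells were treated as 1 sample, so no p-value or standard error was computed between cells. Cells were grouped by the branches of the published dendrogram, read by eye. Ratios are log2 of mean FPKM in pPrE over pEPI cells, named past 2-fold for genes of a mean of at least 1 FPKM over all cells. Cells with at least 100 summed counts of 4 Y-linked genes were split from the rest. Balances of paralogs used a pseudocount of 1. Clopper-Pearson intervals (exact, 95%) stand beside shares of cells. They take each cell as independent, although the cells share 3 embryos, and are no test. They and the limit of 3 counts cover counting error only, since PCR copies of a molecule could not be recognized.

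The members and all gene lists were chosen with earlier results of these data known. The text names the 10 members, the genes of the pathway lists past 2-fold (up to 5 in each direction) or among the 3 highest of their list, 3 nearest genes per member, the lineage markers, Xist and the Y-linked genes. A few others were named after their values were seen: Stk3, Stk4, Nf2, Sav1, Ankrd1, Axl and the genes without counts. The 110 alternatives covered library size (total counts, TMM of edgeR 4.0.16), thinning to the lowest total (1718970 counts), leaving out each of 6 well letters, the exon length, the summary of cells, the grouping, the fold, the minimum and the pseudocount; leaving out the cell with the highest level, and the Y-linked classes for single pathway genes, were added after seeing the data. The steps were tested on simulated data. Software was R 4.3.3 and Python 3.11.15 with scipy 1.17.1, pandas 2.3.3, numpy 2.4.6 and matplotlib 3.10.9.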

Additional observations from a re-analysis of the deposited data

How the results depend on the processing

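No paired analysis was possible because the labels give no replicate numbers that groups of cells share. The count of members past 2-fold between the branches was 1 and became 2 without the cells of well letter A, without those of E, within the cells with Y-linked counts, within those without, and at 1.5-fold. The second gene was Amot without A, without E and at 1.5-fold and Lats2 within the cells with Y-linked counts, while within those without the 2 were Wwtr1 and Amot. With means of log2 values and with cells grouped by markers the count stayed 1, but the gene was Amot. The count of pathway genes past 2-fold was 8, 3 higher in pPrE and 5 higher in pEPI cells. It was 13 without letter A (6 and 7), 13 without E (6 and 7), 4 with means of log2 values (2 and 2), 15 within the cells without Y-linked counts (8 and 7), 19 at 1.5-fold (9 and 10) and 24 without the minimum (14 and 10). For these alternatives the share of all genes past the fold was not computed. The changed counts of members and pathway genes therefore have no background beside them. A lower fold or no minimum lets more genes of any kind pass. The log2 ratio of Amot between the Y-linked classes, -0.04, became -0.17, -0.23, 0.28, 0.26 and -0.32 without the letters A, B, C, E and F, -0.21 with means of log2 values, -1.23 within pEPI and 0.21 within pPrE cells; the cause was not tested. For the other summaries 11 or 12 alternatives were run each. They gave 5 to 8 members at the minimum (7 as reported) and a Tead4 share of 83.0 to 86.4%. The Wwtr1 to Yap1 balance was 1.597 to 2.55 and the median correlation -0.02 to 0.04. Neither the Tead4 share nor the balance had a Y-linked class among its alternatives, and these ranges did not cover the classes. The median balance was 2.48 with Y-linked counts but 0.58 without them, where 10 cells lay above 0 and 9 below. It was -0.78 in pEPI cells lacking Y-linked counts. The median Tead4 share was 89.3% with and 79.1% without Y-linked counts. The log2 ratio between the branches kept its sign in all 14 alternatives for Amotl2 (0.80 to 2.44), Amot (0.54 to 1.98), Lats2 (-1.88 to -0.47) and Wwtr1 (0.02 to 2.62), and changed sign in at least 1 for Yap1, Tead1, Tead2, Tead4, Lats1 and Vgll4, which lay under or within 2-fold. None of these alternatives was a single run of wells. By run, the direction turned for Amot from A1 to C2 (4.50 FPKM in pEPI, 4.39 FPKM in pPrE cells). It also turned for Wwtr1 from E1 to F3 (22.2 and 14.5 FPKM) and for Lats2 from F4 to F8 (0 and 0.0102 FPKM). For Vgll4 no ratio could be had where a group of cells had no count. The Lats2 to Lats1 balance had a median of 0 throughout, which says nothing of stability, since 15 cells held neither gene and 17 lay above and 16 below 0. For the sparse genes Lats1, Lats2 and Vgll4 a cell without a count may hold RNA that was not captured. Thinning every cell to the lowest total changed their detection little. Lats1 was then counted in 14 pEPI and 8 pPrE cells (15 and 9 before) and Lats2 in 14 and 5 (14 and 6 before). Vgll4 was counted in 2 and 3 cells both before and after.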
